A study of Mus musculus with 9 samples.

Results

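Brown adipose tissue RNA was examined for 10 enzyme genes that act downstream of the branched-chain ketoacid dehydrogenase in the breakdown of leucine, isoleucine and valine. The genes are Ivd, Mccc1, Mccc2 and Auh of the leucine arm, Acadsb of the isoleucine arm, Hibch, Hibadh and Aldh6a1 of the valine arm, and Pcca and Pccb, the paired subunits of propionyl-CoA carboxylase. They were chosen by name, as enzymes of these steps, and matched exactly in the symbol column of each library. All 10 were found among 24356 symbols, and all 10 had an FPKM (fragment counts scaled by transcript length and by library depth) above 0 in each of 9 libraries, as did 14675 genes in all, which are the genes tested.

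The study compared GHRH-KO mice, in which the gene for growth hormone releasing hormone is knocked out, with WT littermates, all of a mixed C57BL6 and 129SV background and on the same chow and light cycle. Each library came from the brown adipose tissue of 1 mouse: 2 KO females, 3 WT females, 2 KO males and 2 WT males, numbered here within each group. The labels name no other treatment of any group, and the age of the mice at collection is not given in the sources used here. As the tissue was sequenced in bulk, fewer cells of a type and less RNA per cell cannot be told apart.

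Brown fat burns fuel to make heat, and branched-chain amino acids are among the fuels its mitochondria take up. After transamination and oxidative decarboxylation the 3 amino acids part: leucine carbon leaves as acetyl-CoA and acetoacetate, valine carbon leaves as propionyl-CoA, and isoleucine gives both acetyl-CoA and propionyl-CoA. Propionyl-CoA carboxylase then carries the propionyl-CoA toward succinyl-CoA and the citric acid cycle.

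The targeted gene, Ghrh, was low or absent in every library and was above 0 in KO-labelled libraries alone, the reverse of a loss of its RNA. It was listed at 0 FPKM in all 5 WT-labelled libraries and at 0.846, 0.233, 0.799 and 0.470 FPKM in KO-labelled females 1 and 2 and males 1 and 2. FPKM do not show which part of the gene the reads came from, and whether the labels hold was not tested. Every direction below is that of the labels as given. Igf1, a target of growth hormone that was picked out after its values were seen, was at 0.713 and 0.892 FPKM in KO-labelled females, 2.46 and 1.28 in KO-labelled males, 5.66, 4.75 and 2.68 in WT-labelled females and 2.13 and 8.80 in WT-labelled males. The groups overlapped in males alone, and the log2 difference averaged over the sexes, KO minus WT, was -1.84 (SE 0.45, interval -2.88 to -0.79, limma adjusted p = 0.0661). FPKM summed to between 380558 and 443569 per library, and relative depth, from the steps between low values, ran from 0.917 to 1.14. Spearman correlations between libraries were 0.958 to 0.991, except that KO-labelled male 1 reached only 0.924 to 0.934. In that library 8 of 8 lymphocyte markers were at their highest, with a summed level of 167 FPKM against 1.50 to 3.24 in the others, and Cd3d and Cr2 were at 0 in some WT-labelled libraries. Macrophage markers (5 of 5 at their highest) summed to 125 FPKM there against 14.8 to 57.0, and cell division markers (6 of 6) to 4.70 against 0.131 to 0.832. Skeletal muscle markers summed to 2419 to 11090 FPKM in KO-labelled and 394 to 2081 FPKM in WT-labelled libraries, with 7 of 11 above every WT-labelled library in every KO-labelled one and 9 of 11 highest in KO-labelled male 1. Fibroblast markers summed to 43.1 to 50.4 FPKM in KO-labelled and 51.7 to 107 FPKM in WT-labelled libraries, endothelial markers to 79.9 to 121 and 105 to 134, and white adipocyte markers to 39.8 to 97.9 and 79.2 to 332. Brown adipocyte markers were detected in all libraries (9 of 9). Their summed level was 8086 to 8274 FPKM in KO-labelled and 6547 to 7834 in WT-labelled females. In males it was 6393 to 6474 in KO-labelled and 6016 to 6345 in WT-labelled libraries. The sum was thus higher in KO-labelled libraries in each sex, while with the sexes pooled the KO-labelled and WT-labelled sums overlapped. With the sexes pooled, 0 of 9 markers alone had every KO-labelled library above every WT-labelled one. Ucp1, which is among them, was higher in KO-labelled libraries within each sex. It was at 2992 and 2460 FPKM in KO-labelled and 1650, 2086 and 2325 in WT-labelled females. In males it was at 2164 and 2399 in KO-labelled and 1357 and 1681 in WT-labelled libraries. The male gap in Ucp1 is wider than the gap between the male sums. The single RNA Mir6236 held 10.3% of the FPKM sum of KO-labelled male 2 and 6.36% of that of KO-labelled male 1, against 2.30% to 4.48% in the others.

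All 10 enzymes were abundant messages. On the FPKM scale, which is per length, their mean levels over 9 libraries ran from 44.5 for Mccc1 to 268.2 for Hibadh, at the percentiles 91.9 and 98.3 of all tested genes. The order of the levels was Hibadh, Pccb (232), Aldh6a1 (203), Hibch (146), Ivd (91.6), Pcca (88.4), Auh (78.8), Mccc2 (64.1), Acadsb (63.0) and Mccc1. The ranges over libraries overlapped for every pair of neighbours in this order. Within libraries the order was steadier: Hibadh was above Pccb in 9 of 9 libraries and Aldh6a1 above Hibch in 9 of 9, while Ivd was above Pcca in 4 of 9. The 4 most abundant of the 10 were the valine arm genes listed here and a subunit of propionyl-CoA carboxylase, and the listed leucine and isoleucine genes were all lower. This order is of the listed genes and not of whole arms. Other distal steps lie outside the 10, and their mean levels ran from 11.9 to 420.9 FPKM.

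The stretches upstream of start sites are shown for the genes the results turn on: Acadsb and Aldh6a1, whose KO minus WT difference was furthest apart between the sexes, and Auh, which lay in 1 direction in both. Each is the 250 bases before the RefSeq start site (GRCm38.p6), 5′ to 3′ on the strand of the gene: Acadsb at chr7:131410351-131410600 (plus), Aldh6a1 at chr12:84451025-84451274 (minus) and Auh at chr13:52929678-52929927 (minus). Capitals mark matches, on either strand, to 5 searched motifs: the E-box CACGTG, the ETS-type CCGGAAG, the GC box GGGCGG, the nuclear receptor half-site AAGGTCA and the NRF1-type motif, spelled GCGC, 2 bases of any kind and GCGC.
Acadsb: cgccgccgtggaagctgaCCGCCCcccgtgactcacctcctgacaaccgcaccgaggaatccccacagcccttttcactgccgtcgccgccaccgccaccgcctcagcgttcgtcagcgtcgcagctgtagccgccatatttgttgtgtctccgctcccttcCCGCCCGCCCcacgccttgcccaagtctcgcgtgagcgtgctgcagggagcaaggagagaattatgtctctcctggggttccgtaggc
Aldh6a1: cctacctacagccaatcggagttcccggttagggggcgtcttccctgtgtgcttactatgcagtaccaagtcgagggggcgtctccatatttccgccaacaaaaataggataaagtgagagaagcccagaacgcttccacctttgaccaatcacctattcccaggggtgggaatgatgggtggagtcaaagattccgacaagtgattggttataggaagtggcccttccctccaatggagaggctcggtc
Auh: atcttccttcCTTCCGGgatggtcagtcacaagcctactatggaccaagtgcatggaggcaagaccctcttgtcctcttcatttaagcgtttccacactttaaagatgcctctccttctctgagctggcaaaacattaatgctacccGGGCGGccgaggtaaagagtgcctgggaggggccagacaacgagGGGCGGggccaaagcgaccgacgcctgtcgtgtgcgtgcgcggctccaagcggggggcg

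Acadsb held 3 GC boxes, a pair of them overlapping, in a stretch of 65.6% G and C. Aldh6a1 held no match, at 52.4% G and C, and Auh held 1 ETS-type match and 2 GC boxes, at 58.4%. All 10 genes matched a RefSeq promoter, and over them the GC box stood in 6 (32.7% of 32817 promoters), the NRF1-type motif in 2 (4.97%), the E-box in 1 (6.02%), the ETS-type motif in 1 (6.91%) and the half-site in 0 (4.08%). The matches are letters in a window and were not tied to any measured binding.

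KO and WT libraries were compared in each sex, averaged over the sexes, and between the sexes, with limma on log2 FPKM over all 14675 genes. None of the 10 genes had an adjusted p under 0.05 in any of these. The share of all tested genes called was 3.6% averaged over the sexes, 0.0204% in females, 0.0136% in males, 0.0136% for male minus female averaged over the genotypes, and 0% for the genotype by sex interaction. At an unadjusted limma p under 0.05 the number was 3 of 10 averaged over the sexes (2961 of all genes, 20.2%). It was 5 in females (1862, 12.7%), 4 in males (2429, 16.6%), 4 between the sexes (1533, 10.4%) and 6 for the interaction (1028, 7.0%). An ordinary linear model, at an unadjusted p under 0.01, called 2 genes averaged over the sexes (Auh and Aldh6a1), where it called 7.54% of all genes. It called 1 in females (Acadsb, 3.43% of all genes), 2 in males (Acadsb and Aldh6a1, 5.29%), 1 between the sexes (Auh, 3.14%) and 2 for the interaction (Acadsb and Aldh6a1, 1.66%). The study's methods use a model of this type and do not state how its genotype term was coded. The paper's count of genotype genes equals the female count of the model fitted here, and not the averaged count. The calls averaged over the sexes are therefore not credited to the study's genotype term.

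**Figure D1:**
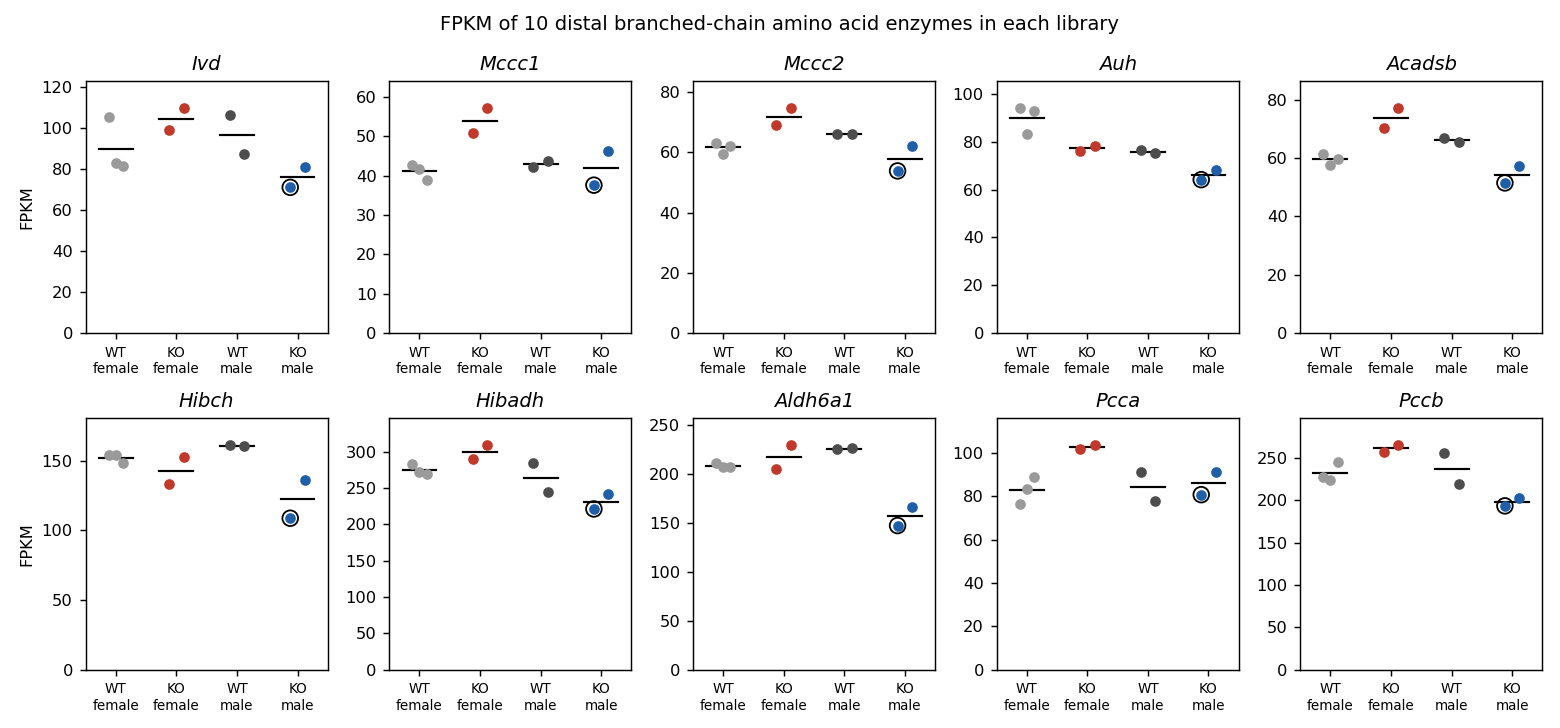
FPKM of each enzyme gene (vertical axes from 0) in every library, by genotype label and sex. Points are mice, bars are group means, and the ringed point is KO-labelled male 1, which was the lowest of 9 libraries for every gene but Pcca.

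In the leucine arm, isovaleryl-CoA dehydrogenase, the product of Ivd (chr2:118861954-118882909, plus strand, GRCm38), makes the first dehydrogenation of leucine's carbon chain after the ketoacid dehydrogenase. Its level was 105, 82.9 and 81.7 FPKM in WT-labelled females 1 to 3, 99.2 and 109.8 in KO-labelled females, 106 and 87.3 in WT-labelled males and 71.1 and 80.8 in KO-labelled males. The KO-labelled females lay on either side of WT-labelled female 1, and both KO-labelled males were below both WT-labelled males. The log2 difference, KO minus WT, was 0.22 in females (95% interval -0.11 to 0.56, adjusted p = 0.567) and -0.35 in males (-0.71 to 0.02, adjusted p = 0.334).

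Mccc1 (chr3:35959312-36000678, minus strand) and Mccc2 (chr13:99948530-100015639, minus strand) encode the biotin-bearing and the carboxyl-transferring subunit of methylcrotonyl-CoA carboxylase, the next step. Mccc1 was at 42.8, 41.7 and 38.8 FPKM in WT-labelled females and 50.7 and 57.1 in KO-labelled females. In males it was at 42.1 and 43.8 in WT-labelled and 37.6 and 46.3 in KO-labelled libraries. The female groups did not overlap, while the KO-labelled males lay on either side of both WT-labelled ones. Its female log2 difference, 0.39 (SE 0.11, interval 0.13 to 0.65), was the largest of the 10 in that sex, with an unadjusted p of 0.00852 and an adjusted p of 0.238, and the male one was -0.04 (-0.33 to 0.24, adjusted p = 0.914).

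Mccc2 was at 63.1, 59.6 and 62.2 FPKM in WT-labelled females, 69.0 and 74.7 in KO-labelled females, 66.0 and 66.0 in WT-labelled males and 53.9 and 62.1 in KO-labelled males. Neither sex had overlapping groups, and they lay in opposite directions. The log2 difference was 0.22 in females (0.02 to 0.43, adjusted p = 0.360) and -0.19 in males (-0.41 to 0.03, adjusted p = 0.386).

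Auh (chr13:52835119-52929681, minus strand) encodes methylglutaconyl-CoA hydratase, which hydrates the carboxylated product and also binds AU-rich RNA. It was at 94.2, 83.3 and 92.8 FPKM in WT-labelled females, 76.4 and 78.3 in KO-labelled females, 76.7 and 75.3 in WT-labelled males and 64.2 and 68.1 in KO-labelled males. Of the 10 genes it was the one with every KO-labelled library below every WT-labelled library of its sex in both sexes, as 9.66% of all tested genes were. Across the sexes the groups still overlapped, since the KO-labelled females were close to the WT-labelled males. Its log2 difference was -0.22 in females (-0.41 to -0.03, adjusted p = 0.337), -0.20 in males (-0.41 to 0.01, adjusted p = 0.326) and -0.21 averaged over the sexes (SE 0.06, interval -0.35 to -0.07, adjusted p = 0.102), from 84.5 ± 8.81 (SD, n = 5) WT-labelled to 71.7 ± 6.67 FPKM (n = 4) KO-labelled. Male minus female was -0.23 on the log2 scale (interval -0.38 to -0.09, unadjusted p = 0.00540, adjusted p = 0.278), the lowest p of the 10 genes between the sexes.

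In the isoleucine arm, Acadsb (chr7:131410601-131448944, plus strand) encodes short/branched-chain acyl-CoA dehydrogenase, which oxidizes methylbutyryl-CoA. It was at 61.4, 57.7 and 59.7 FPKM in WT-labelled females and 70.1 and 77.1 in KO-labelled females. In males it was at 67.0 and 65.7 in WT-labelled and 51.5 and 57.2 in KO-labelled libraries. The KO-labelled females were above, and the KO-labelled males below, every WT-labelled library of the whole set. The log2 difference was 0.30 in females (SE 0.08, interval 0.11 to 0.50, unadjusted p = 0.00742, adjusted p = 0.230) and -0.29 in males (-0.50 to -0.07, unadjusted p = 0.0149, adjusted p = 0.172). Both intervals excluded 0, on opposite sides, and the difference averaged over the sexes was 0.01 (-0.14 to 0.15).

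**Figure D2:**
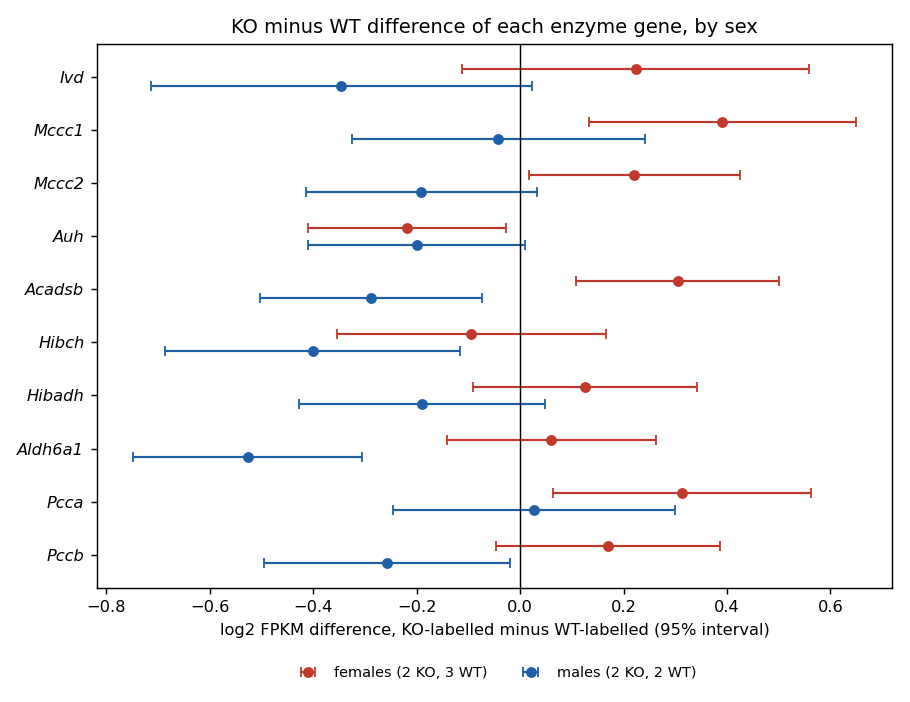
Log2 FPKM difference, KO-labelled minus WT-labelled, of each enzyme gene in females (red) and males (blue), from limma. Points are estimates and bars are 95% intervals. The female estimates of 8 genes are above 0 and the male estimates of 9 genes are below it, and Auh and Hibch are below it in both sexes (Hibch in females is at 0.0148 after median centring).

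In the valine arm, Hibch (chr1:52844929-52920986, plus strand) encodes 3-hydroxyisobutyryl-CoA hydrolase, which frees hydroxyisobutyrate from coenzyme A. Its level was 154, 154 and 148 FPKM in WT-labelled females and 133 and 153 in KO-labelled females. WT-labelled males were at 162 and 160.3 and KO-labelled males at 109 and 137. The female groups overlapped and the male groups did not. The log2 difference was -0.09 in females (-0.35 to 0.17, adjusted p = 0.785; 0.0148 after median centring of the libraries) and -0.40 in males (SE 0.12, interval -0.69 to -0.12, unadjusted p = 0.0120, adjusted p = 0.157).

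Hibadh (chr6:52546228-52640389, minus strand), hydroxyisobutyrate dehydrogenase, takes the next oxidation. It was at 283, 272 and 269 FPKM in WT-labelled females, 289.7 and 309.6 in KO-labelled females, 284 and 245 in WT-labelled males and 221 and 241 in KO-labelled males. The groups did not overlap in either sex, by a narrow margin in each. The log2 difference was 0.13 in females (-0.09 to 0.34, adjusted p = 0.616) and -0.19 in males (-0.43 to 0.05, adjusted p = 0.420).

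Aldh6a1 (chr12:84430717-84451004, minus strand) encodes methylmalonate semialdehyde dehydrogenase, which ends the arm in propionyl-CoA. It was at 211, 206 and 207 FPKM in WT-labelled females and 205 and 229.6 in KO-labelled females. It was at 225 and 226 in WT-labelled males and 147 and 166 in KO-labelled males. The KO-labelled males were below every other library, and the WT-labelled males differed from each other by about 1 FPKM. Its male log2 difference of -0.53 (SE 0.10, interval -0.75 to -0.31), a fold of 0.694, was the largest of the 10 genes in either sex and had the lowest p (unadjusted 0.000653, adjusted 0.0745). In females it was 0.06 (-0.14 to 0.26, adjusted p = 0.831). Of the exonic bases of Aldh6a1, 18.6% (1078 bases) also lie in exons of Bbof1 on the other strand, listed here as Ccdc176 at 2.07 to 4.41 FPKM, and whether counting used strand is not given in the sources used here. For the other genes no more than 4.63% of exonic bases were shared with any single neighbour.

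Of propionyl-CoA carboxylase, Pcca (chr14:122534324-122891100, plus strand) encodes the biotin-bearing subunit and Pccb (chr9:100982032-101034898, minus strand) the carboxyl-transferring one. Pcca was at 76.5, 83.3 and 89.1 FPKM in WT-labelled females, 102 and 104 in KO-labelled females, 91.2 and 77.8 in WT-labelled males and 80.7 and 91.2 in KO-labelled males. The KO-labelled females were above all other libraries and the male groups overlapped. The log2 difference was 0.31 in females (0.06 to 0.56, adjusted p = 0.294) and 0.03 in males (-0.25 to 0.30, adjusted p = 0.944).

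Pccb was at 228, 224 and 245 FPKM in WT-labelled females, 257 and 265 in KO-labelled females, 256 and 219 in WT-labelled males and 193 and 203 in KO-labelled males. Neither sex had overlapping groups. The log2 difference was 0.17 in females (-0.05 to 0.39, adjusted p = 0.489) and -0.26 in males (-0.50 to -0.02, adjusted p = 0.266).

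Because the subunits of each carboxylase work in fixed complexes, the FPKM ratio of the paired genes was taken in each library, as a description with no test. Pccb to Pcca was 2.98, 2.68 and 2.75 in WT-labelled females, 2.81 and 2.81 in WT-labelled males, 2.52 and 2.56 in KO-labelled females and 2.39 and 2.22 in KO-labelled males. Every KO-labelled library was below every WT-labelled one, at 2.42 ± 0.152 (SD, n = 4) against 2.81 ± 0.110 (n = 5). Among single tested genes 6.04% separated in this direction and 3.03% in the other. The share among ratios of other gene pairs was not measured, so the separation cannot be called particular to this pair. Mccc2 to Mccc1 was 1.36 ± 0.0533 in KO-labelled (1.31 to 1.43) and 1.52 ± 0.0691 in WT-labelled libraries (1.43 to 1.60), and the ranges overlapped through KO-labelled male 1. In both enzymes the mean ratio was lower in KO-labelled than in WT-labelled libraries, in females and in males.

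**Figure D3:**
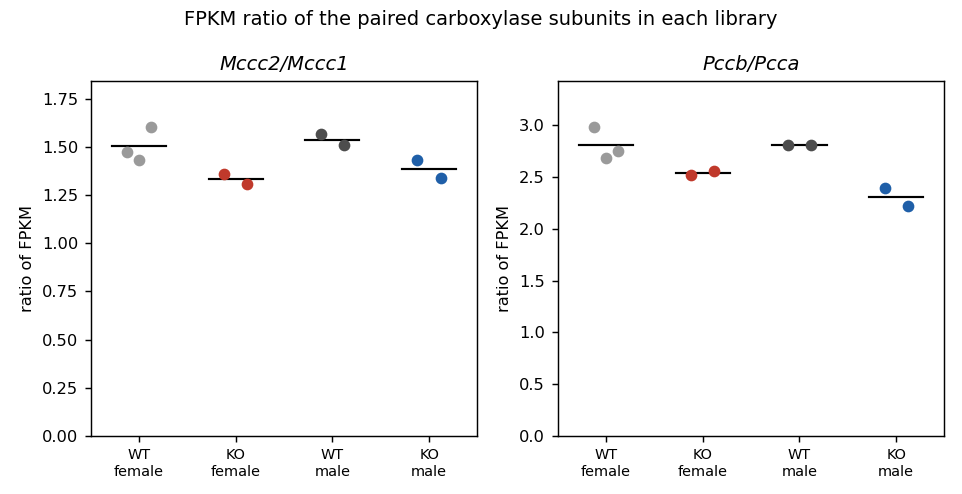
FPKM ratio of the carboxyl-transferring to the biotin-bearing subunit gene in each library (points, vertical axis from 0) with group means (bars). For Pccb to Pcca the 4 KO-labelled libraries lie between 2.22 and 2.56 and the 5 WT-labelled between 2.68 and 2.98.

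Over the 10 genes, the female log2 differences had a median of 0.20 and 8 were positive, beside a median of -0.07 and 39.8% positive over all tested genes. The male differences had a median of -0.23 and 9 were negative, beside -0.08 and 60.1% negative over all genes. This gap between the 10 genes and all genes rested on KO-labelled male 1: without it the male medians were -0.19 and -0.22, with 24.55% of all genes positive. Averaged over the sexes these nearly cancelled, at a median of -0.04 (4 positive, 6 negative; 0.0206 after median centring) beside -0.07 for all genes.

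Every KO-labelled female was above every WT-labelled female in 6 of 10 genes (Mccc1, Mccc2, Acadsb, Hibadh, Pcca and Pccb), where 13.8% of all tested genes were, and below in 1 (Auh), where 26.6% were. Every KO-labelled male was below every WT-labelled male in 8 of 10 (all but Mccc1 and Pcca), where 28.7% of all genes were, and above in 0, where 10.8% were. Mccc2, Acadsb, Hibadh and Pccb had both patterns, KO-labelled females above and males below, which 2.58% of all genes had and 0.77% had in reverse. No gene of the 10 separated all 4 KO-labelled from all 5 WT-labelled libraries, as 3.03% of all genes did upward and 6.04% downward. As these genes share the same mice, the counts are not independent observations.

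The difference between the sexes was tested itself, as the male KO minus WT difference less the female one. It was negative for 9 of 10 genes, with a median of -0.42 beside -0.01 for all tested genes, and no adjusted p was under 0.614. Acadsb had -0.59 (SE 0.13, interval -0.88 to -0.30, unadjusted p = 0.00165) and Aldh6a1 had -0.59 (SE 0.13, -0.89 to -0.29, unadjusted p = 0.00211), each with an adjusted p of 0.614. Ivd had -0.57 and Mccc1 -0.43, Pccb -0.43 and Mccc2 -0.41, all with intervals below 0 before adjustment. Auh alone was positive, at 0.02 (-0.27 to 0.30), and was at -0.0824 after median centring. Between the sexes, averaged over the genotypes, male minus female was negative for all 10 genes, with a median of -0.16 on the log2 scale beside 0.01 for all genes, and the lowest adjusted p was 0.278. This average hid a split by genotype label. Among KO-labelled mice the male mean was below the female mean for every gene. Among WT-labelled mice it was above the female mean for all but Auh and Hibadh, for example 66.3 against 59.6 FPKM for Acadsb.

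The libraries were also ranked for each gene. KO-labelled male 1 was the lowest of 9 libraries for 9 of 10 genes, as it was for 15.6% of all genes, the exception being Pcca. KO-labelled male 2 was above it in all 10, and was still below both WT-labelled males in 8 of 10, as it was for 60.8% of all genes. KO-labelled female 2 was the highest library for 8 of 10 genes, as it was for 5.85% of all genes, and was above KO-labelled female 1 in all 10. On the log2 scale against the mean of the WT-labelled libraries, the median of the 10 genes was 0.11 and 0.22 in KO-labelled females 1 and 2, where all tested genes had medians of -0.07 and -0.12. It was -0.28 in KO-labelled male 1 beside 0.01 for all genes, and -0.18 in KO-labelled male 2 beside -0.24 for all genes. In the WT-labelled libraries the median of the 10 genes stayed between -0.04 and 0.07.

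**Figure D4:**
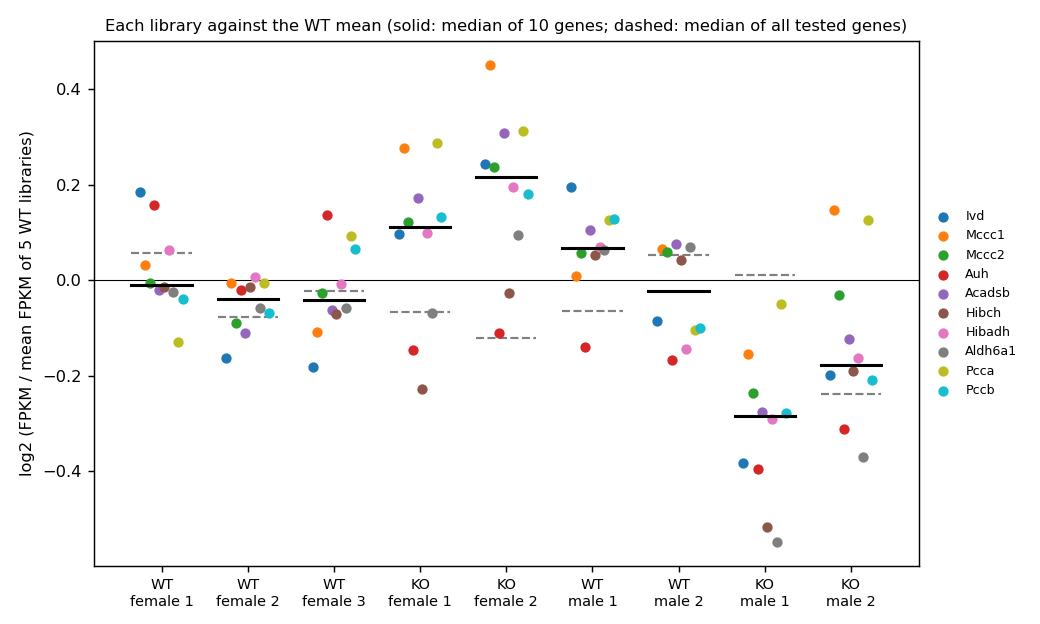
Log2 of FPKM over the mean of the 5 WT-labelled libraries, for each of 10 enzyme genes (coloured points) in each library. Solid bars are the median of the 10 genes and dashed bars the median of all tested genes. The solid bar is above the dashed one in both KO-labelled females, and in KO-labelled male 1 it is at -0.28 beside 0.01.

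Without KO-labelled male 1, the library with the lymphocyte and macrophage messages, the interaction median of the 10 genes was -0.30 beside -0.13 for all tested genes, and the male median, given above, was no lower than that of all genes. None of the 10 genes was then called, where 3.01% of all genes were called averaged over the sexes, 0.129% in females, 0.0613% in males, 0.0477% between the sexes and 0.0136% for the interaction. Aldh6a1 was then at -0.44 in males (adjusted p = 0.159), Acadsb at -0.21 (adjusted p = 0.337), Hibch at -0.24 (adjusted p = 0.322) and Mccc1 turned to 0.11. Without KO-labelled male 2, the library with the largest share of Mir6236, the male median was -0.29 beside 0.02 for all genes and the interaction median -0.49 beside 0.08. The limma calls were then Hibch (-0.57, adjusted p = 0.0299) and Aldh6a1 (-0.62, adjusted p = 0.0207) in males, where 8.81% of all genes were called. The interaction then called Acadsb (-0.67, adjusted p = 0.0385) and Aldh6a1 (-0.68, adjusted p = 0.0375), where 4.91% of all genes were called, and Hibch was called averaged over the sexes (-0.33, adjusted p = 0.0419), where 7.53% were. In females and between the sexes it called 0 of the 10 genes, where 0.0818% and 5.47% of all genes were called. These calls rest on KO-labelled male 1 as the lone male of its group. Over all alternatives the adjusted p in males ran from 0.0207 to 0.334 for Aldh6a1 and from 0.0299 to 0.541 for Hibch, that of Hibch averaged over the sexes from 0.0419 to 0.660, and that of the interaction from 0.0385 to 0.976 for Acadsb and from 0.0375 to 0.976 for Aldh6a1. The part of the cell type markers and of Mir6236 in the differences of either sex was not tested.

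The neighbouring steps were read in the same way. Among 10 other distal steps, 1 gene was called averaged over the sexes, where 3.6% of all tested genes were called. It was Mcee, methylmalonyl-CoA epimerase, which acts just after propionyl-CoA carboxylase. Mcee was at 169 and 171 FPKM in KO-labelled females, 150.4 and 146 in KO-labelled males, 126, 108 and 137 in WT-labelled females and 110.2 and 109.5 in WT-labelled males. Every KO-labelled library was above every WT-labelled one, as for 3.03% of all tested genes. The log2 difference was 0.45 (SE 0.08, interval 0.27 to 0.63, limma adjusted p = 0.0348). The call was lost in 10 of 19 alternatives, with adjusted p from 0.0285 to 0.134, and held its direction in all of them. Echs1, enoyl-CoA hydratase, had the next lowest p of that list (-0.13, adjusted p = 0.368).

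None of the 9 entry steps, the transaminases, the ketoacid dehydrogenase with its control enzymes and the mitochondrial carrier, was called in any comparison. Averaged over the sexes, Dbt, the transacylase core of that dehydrogenase, was at 0.26 (adjusted p = 0.0805) and Bckdk, its inhibiting kinase, at -0.16 (adjusted p = 0.183). The list's medians were 0.30 in females and -0.24 in males, and those of the other distal steps 0.09 and -0.18, both with the signs of the 10 genes. The interaction was negative for 9 of 9 entry steps and 9 of 10 other distal steps (medians -0.39 and -0.23). It was below that of any of the 10 genes for Bcat2 (-1.08), Ppm1k (-1.03), Hsd17b10 (-0.92) and Mut (-0.61). Their limma adjusted p were 0.614, 0.438, 0.614 and 0.646. In each, KO-labelled females were above every WT-labelled female and KO-labelled males below every WT-labelled male. The split was thus not particular to the 10 genes. None of the 5 genes for electron transfer and the biotin cofactor was called: Etfb and Etfa, which accept electrons from Ivd and Acadsb, were at -0.26 (adjusted p = 0.101) and -0.15 (adjusted p = 0.209), and the list's medians were -0.05 and -0.25.

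The 3 other biotin carboxylases and the 4 acyl-CoA dehydrogenases of fatty acids also had no called gene. Of the first, Pcx, pyruvate carboxylase, was at -0.45 averaged over the sexes (adjusted p = 0.160) and Acaca, acetyl-CoA carboxylase, at 0.29 (adjusted p = 0.552), with medians of 0.37 in females and -0.65 in males. Of the second, Acadl was at 0.12 (adjusted p = 0.611) and Acads at -0.09 (adjusted p = 0.616), with medians of 0.19 and -0.24. These enzymes share cofactors or chemistry with the distal enzymes but act on other fuels. Their list medians had the same sign in each sex as those of the 10 genes, and differences between lists were not tested.

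**Figure D5:**
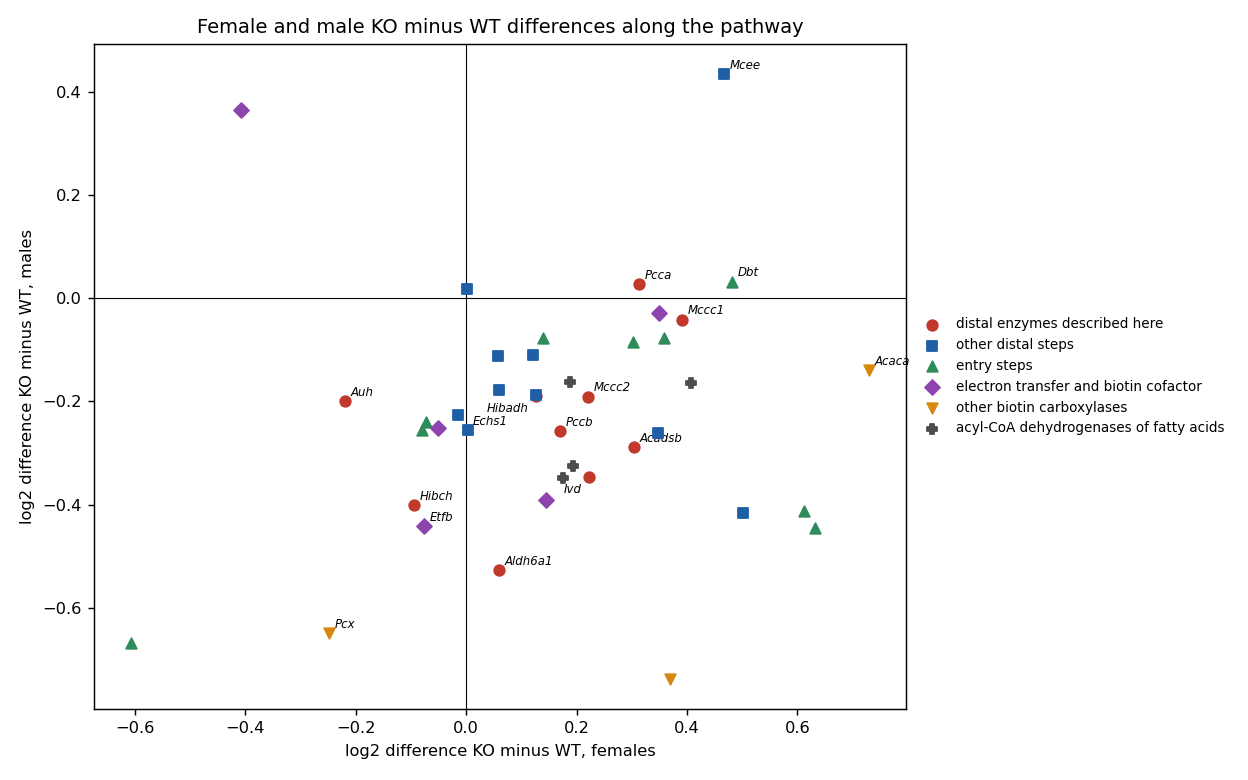
Log2 KO minus WT difference in females (horizontal) and males (vertical) for the 10 distal enzymes (red circles) and the genes of 5 related lists (other symbols); lines mark 0. Most points lie at right and below, positive in females and negative in males, and Mcee lies apart at upper right, 0.47 in females and 0.43 in males.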

How the data were processed

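Brown adipose RNA-seq tables of 9 mice were used, 1 for each library. The deposited values are FPKM, made by the authors with bcl2fastq 1.8.4, TopHat2 2.0.11 and Bowtie on mm10 (GRCm38), per the labels' processing notes; strand use in counting and fragment counts are not given in the sources used here. The libraries were poly(A)-selected and sequenced as paired ends. FPKM keep no absolute depth, so precision was read from the spread between mice.

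The 14675 genes above 0 FPKM in every library were tested on log2 FPKM with no pseudocount, in limma 3.58.1 (R 4.3.3) with a mean for each genotype and sex group, a mean-variance trend and Benjamini-Hochberg adjustment over all tested genes at 0.05. An ordinary linear model with an unadjusted p under 0.01 was an alternative. The study's methods use this type of model and threshold, while the contrasts taken from it were set here. Other alternatives were pseudocounts of 0.1 and 1, filters on low values, other scalings and variance models, and leaving out each library. The script was tested on simulated data.

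Every one of the 10 genes is named. Of related lists, called genes and the pair with the lowest p averaged over the sexes are named. Entry and other distal steps with an interaction below that of any of the 10 genes are named too. The genes, lists and tests were chosen with earlier results of these data known. Positions are from GENCODE M21 and upstream sequences from RefSeq (GRCm38.p6). Figures and summaries used Python 3.11.15, pandas 2.3.3, numpy 2.4.6 and matplotlib 3.10.9.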

Additional observations from a re-analysis of the deposited data

Results flagged for a closer look

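In 4 genes every KO-labelled female was above every WT-labelled female while every KO-labelled male was below every WT-labelled male. The male less the female KO minus WT difference was -0.41 for Mccc2, -0.59 for Acadsb, -0.32 for Hibadh and -0.43 for Pccb on the log2 scale. By limma's interaction term these had adjusted p of 0.652, 0.614, 0.709 and 0.654, none under 0.05, and 2.58% of all tested genes had the same pattern. A single library far from the rest of its genotype was looked for in 20 groups of 4 or 5 libraries, and 0 were found. Groups this small, with both sexes pooled, leave such a check little power. KO-labelled male 1 was the lowest library for 9 of 10 genes all the same.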

How the results depend on the processing

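Of 920 member values recomputed under alternatives, 884 kept their direction and side of the threshold, 13 came past the threshold and 23, over 11 of 50 results, changed sign, 18 of them when 1 library was left out. The ordinary linear model, with its unadjusted threshold, called 2 genes averaged over the sexes, 1 in females, 2 in males, 1 between the sexes and 2 for the interaction, in place of 0. Leaving out 1 library gave 0 to 1 averaged over the sexes, 0 to 2 in males and 0 to 2 for the interaction; the calls came without KO-labelled male 2. Median centring of each library moved the median of all genes from -0.07 to 0.04 in females and from -0.01 to -0.12 for the interaction, where member medians were then 0.30 and -0.52. It turned Auh's interaction to -0.0824, Hibch in females to 0.0148, and, averaged over the sexes, Hibadh to 0.0266, Pccb to 0.0146 and the member median to 0.0206. Quantile normalization turned Mccc1 in males to 0.0404. With 1 library left out, values averaged over the sexes ran from -0.0928 to 0.0140 for the member median, -0.131 to 0.00902 for Ivd, -0.0362 to 0.0664 for Mccc2, -0.0305 to 0.0460 for Acadsb, -0.0852 to 0.0220 for Hibadh and -0.100 to 0.0132 for Pccb. They ran from -0.193 to 0.109 for Mccc1 and -0.0871 to 0.142 for Pcca in males, -0.194 to 0.00618 for Hibch and -0.0206 to 0.141 for Aldh6a1 in females, -0.155 to 0.00872 for Hibch between the sexes, and -0.0235 to 0.0743 for Auh's interaction. The cause was not tested. No paired analysis was possible because the animal numbers in the titles are not shared between groups.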
